A study of Mus musculus with 8 samples.

Results

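The genes described here encode the voltage-gated sodium channels (Scn), the voltage-gated calcium channels with the related gamma subunits (Cacna, Cacnb, Cacng) and the hyperpolarisation-activated cation channels (Hcn). They were chosen by symbol: every protein-coding gene of the Scn alpha and beta series, every gene whose symbol starts with Cacna, Cacnb or Cacng, and every Hcn gene. This gave 44 genes of the 27179 in the count matrix, 24 for pore-forming subunits and 20 for auxiliary subunits. They were measured in the embryonic cerebral cortex of 8 separate mice, by sequencing polyadenylated RNA without strand information. The 4 control embryos had both copies of Taf8 (Taf8 +/+), and the 4 Taf8-deleted embryos carried the alleles written as - and lox (Taf8 -/lox). The intact embryos carried animal numbers 408.4, 408.5, 408.6 and 409.2 and the deleted ones 456.1, 472.1, 477.1 and 486.1, so that no number before the point occurs in both groups, and what it stands for cannot be told apart from the genotype. The sources used here do not give the recombinase, the cells it acts in, the strain or the embryonic stage. The TAF8 protein is part of TFIID, the complex that binds core promoters.

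Libraries held 39590959 to 44788200 counts. Taf8 had 1222 to 1491 counts in the intact and 14 to 30 in the deleted libraries, and fell by 6.02 ± 0.15 (SE) on the log2 scale (adjusted p = 2.42e-10, edgeR). Markers of postmitotic neurons and of radial glia, the progenitors of the cortex, were present in every library. Their summed levels were 8210 to 8980 and 2290 to 2610 CPM (counts scaled to a library of fixed size) in the intact libraries, against 6330 to 6880 and 3310 to 3530 CPM in the deleted ones. Intact replicate 3 stood apart for these genes: of the 39 channel genes that could be tested, 30 had their highest intact value in it, and it also had the highest neuron marker sum. Among deleted libraries, 24 channel genes were lowest in replicate 2 and 19 highest in replicate 4. Meningeal fibroblast markers summed to 117 and 147 CPM in deleted replicates 2 and 3, 61.1 and 18.7 CPM in deleted replicates 1 and 4, and 15.9 to 37.1 CPM in the intact libraries.

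As background, sodium channels carry the rising phase of the action potential. Each has 1 large alpha subunit, which forms the pore, and beta subunits that adjust its gating and its place in the membrane. Calcium channels of the L, P/Q, N and R types are built in a similar way around a Cacna1 pore. They have a Cacna2d subunit outside the membrane and a Cacnb subunit inside. Calcium channels couple voltage to transmitter release, gene expression and, in the T type, to firing near rest. Of the gamma genes, Cacng1 encodes a calcium channel subunit of skeletal muscle, and Cacng2, Cacng3, Cacng4, Cacng5, Cacng7 and Cacng8 encode TARPs, which carry AMPA-type glutamate receptors to synapses. HCN channels open on hyperpolarisation, bind cyclic AMP and set rhythmic firing and resting conductance.

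Channel genes were mostly lower in Taf8-deleted cortex. Of the 39 tested genes, 25 fell and 4 rose, and 10 did not pass the test. By the same test 32.9% of all 16074 tested genes fell and 30.6% rose, 5290 and 4919 genes. That balance depended on the scaling: with upper-quartile factors 4480 of all genes were lower and 5837 higher, beside 24 and 5 channel genes, and with library totals only 4416 and 5894, beside 25 and 6 channel genes. The fall reached 1.5-fold in 14 channel genes, where 9.54% of all genes did so, and 2-fold in Scn1a, Scn2a, Cacna1g and Cacng3, where 3.02% of all genes did so. Scn2a only just reached 2-fold, and its log2 fold change was -0.947 with upper-quartile factors and -0.943 with library totals only. The median log2 fold change was -0.31 over the tested channel genes and 0.00 over all genes. Either call was reached by 29 of the 39, where 63.5% of all genes reached it. The deleted and intact values did not overlap in 25 of the 39, where 57.7% of all genes had no overlap. In 23 of these the deleted values were lower (30.1% of all genes) and in 2 higher (27.6% of all genes). The rise reached 1.5-fold in 2 genes, where 11% of all genes did so. Auxiliary subunits had 13 of 17 tested genes lower and 1 higher, and pore-forming subunits 12 of 22 lower and 3 higher. The auxiliary genes include 6 tested TARP genes, which serve AMPA receptors, and 5 of these 6 were lower. Neuron markers fell beside them: 12 of 15 were lower and 1 higher, with a median of -0.39. In bulk tissue, fewer neurons and less channel mRNA per neuron cannot be told apart. The p-values are adjusted over all genes, from edgeR's quasi-likelihood test (Benjamini-Hochberg), and a log2 fold change is deleted minus intact.

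**Figure D1:**
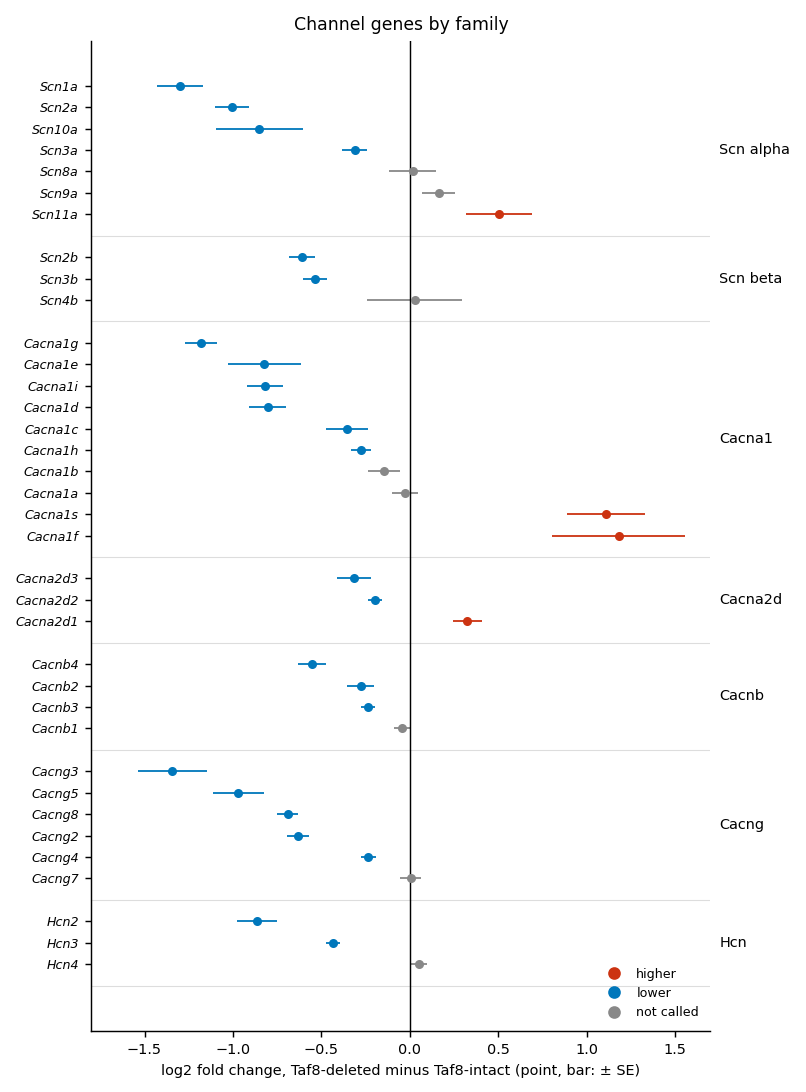
Log2 fold change (deleted minus intact, horizontal axis) of 36 of the tested channel genes, grouped by family, with bars for ± SE; blue points fell, red points rose and grey points did not pass the test. The 24 blue points lie between Cacng3 at -1.34 and Cacna2d2 at -0.20, and the 4 red points between Cacna2d1 at 0.33 and Cacna1f at 1.18.

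Because TFIID acts at core promoters, the sequence before the annotated starts was read from RefSeq (GRCm38.p6), where 32 of the 44 genes had a promoter entry. Those without an entry included Cacna1a, Cacna1g, Cacna1h, Cacna2d4, Cacng1, Cacng4, Hcn3, Scn3a and Scn3b. The 120 bases before the start are shown for genes that fell (Scn2a, Cacna1d, Cacna1i, Hcn2), for 1 that did not pass the test (Hcn4) and for 1 that rose (Cacna2d1), all free of exons in GENCODE M21, so that a reader can compare them. Cacna1d has another annotated start, whose window (chr14:30491157-30491276) is fully exonic and is not shown. Capitals mark any of 4 motifs on either strand: the TATA box (TATAAA), the CCAAT box, the GC box (GGGCGG) and the E box (CACGTG).
Scn2a, upstream start, chr2:65620649-65620768, plus strand: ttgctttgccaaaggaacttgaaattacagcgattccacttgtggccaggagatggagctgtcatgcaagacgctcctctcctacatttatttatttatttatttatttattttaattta
Scn2a, downstream start, chr2:65668566-65668685, plus strand: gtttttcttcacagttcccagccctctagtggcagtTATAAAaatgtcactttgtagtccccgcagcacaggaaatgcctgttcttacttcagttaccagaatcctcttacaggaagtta
Cacna1d, chr14:30353487-30353606, minus strand: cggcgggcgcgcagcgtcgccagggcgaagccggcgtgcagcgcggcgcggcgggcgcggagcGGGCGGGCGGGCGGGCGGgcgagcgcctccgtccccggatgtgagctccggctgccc
Cacna1i, chr15:80287118-80287237, plus strand: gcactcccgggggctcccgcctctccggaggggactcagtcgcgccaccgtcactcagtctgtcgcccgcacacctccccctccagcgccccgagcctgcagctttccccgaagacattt
Hcn2, chr10:79716514-79716633, plus strand: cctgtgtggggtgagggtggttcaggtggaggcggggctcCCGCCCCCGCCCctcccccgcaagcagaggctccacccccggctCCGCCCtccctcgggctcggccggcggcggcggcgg
Hcn4, chr9:58822829-58822948, plus strand: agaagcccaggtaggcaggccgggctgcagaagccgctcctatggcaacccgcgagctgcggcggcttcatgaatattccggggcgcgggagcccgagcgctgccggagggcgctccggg
Cacna2d1, chr5:15934571-15934690, plus strand: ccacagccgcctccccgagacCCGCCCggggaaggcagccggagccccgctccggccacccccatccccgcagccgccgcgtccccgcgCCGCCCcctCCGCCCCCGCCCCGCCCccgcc
In the whole promoter of 300 bases, 250 before and 50 after the start, TATAAA on either strand was found in 2 of the 32 genes, Scn2a and Cacna1d, both of which fell. This is 6.25%, against 15.7% of 27025 genes with an entry. The TATAAA match of Cacna1d lies outside the 120 bases before either of its starts. GGGCGG, the GC box, was found in 17 of the 32 or 53.1%, against 38.2% of all genes, and its copies overlap one another in Cacna1d and Cacna2d1. It was present in 9 of the 18 genes that fell, 3 of the 4 that rose and 4 of the 7 that did not pass the test. CCAAT was found in 10 of the 32 (31.2%, against 41.1% of all genes) and CACGTG in 0 of the 32, against 8.09%. A match is only a run of letters in this window.

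Among the sodium channel pores, Scn1a and Scn2a fell most, Scn3a fell less, and Scn8a did not pass the test. Scn3a is the main alpha subunit of embryonic brain, Scn2a and Scn8a serve the axon initial segment of excitatory neurons, and Scn1a is known from inhibitory interneurons. Scn1a (gene ID 20265, chromosome 2, 66270781 to 66440837 in GRCm38) was at 15.1, 15.9, 18.5 and 14.8 CPM in intact replicates 1 to 4 and at 7.23, 5.17, 5.78 and 7.98 CPM in deleted replicates 1 to 4. Every deleted library was below every intact one, and Scn1a fell by 59.3% (log2 -1.30 ± 0.13 SE, adjusted p = 5.97e-06). Interneuron markers moved with it, with 8 of 10 lower, 1 higher and a median of -0.46, and their part in its fall was not tested. Of all genes 32.9% fell and 30.6% rose.

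Scn2a (gene ID 110876, chromosome 2, 65620764 to 65767447) was at 35.5, 39.99, 49.4 and 38.5 CPM in intact cortex and at 20.1, 20.3, 18.9 and 22.1 CPM in deleted cortex. Its highest deleted value was far below its lowest intact one, and it fell by 50.2% (log2 -1.01 ± 0.09, adjusted p = 5.45e-06). Scn3a (gene ID 20269) was at 118, 122, 129 and 107 CPM against 98.0, 90.5, 86.9 and 108 CPM, so that deleted replicate 4 reached the lowest intact library. It fell by 19.5% (log2 -0.31 ± 0.07, adjusted p = 0.00292). Scn8a (gene ID 20273) was at 70.0, 68.5, 77.9 and 62.9 CPM in intact cortex and at 82.6, 56.3, 63.6 and 80.2 CPM in the deleted libraries. The deleted libraries lay on both sides of the intact ones, and the log2 fold change was 0.02 ± 0.13 (adjusted p = 0.922). Without deleted replicates 2 and 3, which had the lowest Scn8a values and the most meningeal marker RNA, it was 0.22 (adjusted p = 0.031).

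Further alpha subunits were at low levels. Scn10a and Scn11a, best known from sensory neurons, went in opposite directions. Scn10a fell from 32 to 54 counts a library to 19 to 34 (log2 -0.85 ± 0.25, adjusted p = 0.00918), and without deleted replicates 2 and 3 it no longer passed (adjusted p = 0.115). Scn11a had 79, 45, 54 and 50 counts in intact and 83, 70, 95 and 85 in deleted libraries (log2 0.51 ± 0.19, adjusted p = 0.0332). Intact replicate 1 overlapped the deleted values, and the rise of Scn11a was lost when intact replicate 2, 3 or 4 or deleted replicate 3 or 4 was left out (adjusted p of 0.0557 to 0.0871). Scn9a, of pain-sensing neurons, had a log2 fold change of 0.16 ± 0.09 (adjusted p = 0.142). The skeletal muscle gene Scn4a and the glial and sensory gene Scn7a had 0 to 4 counts in any library and were not tested.

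**Figure D2:**
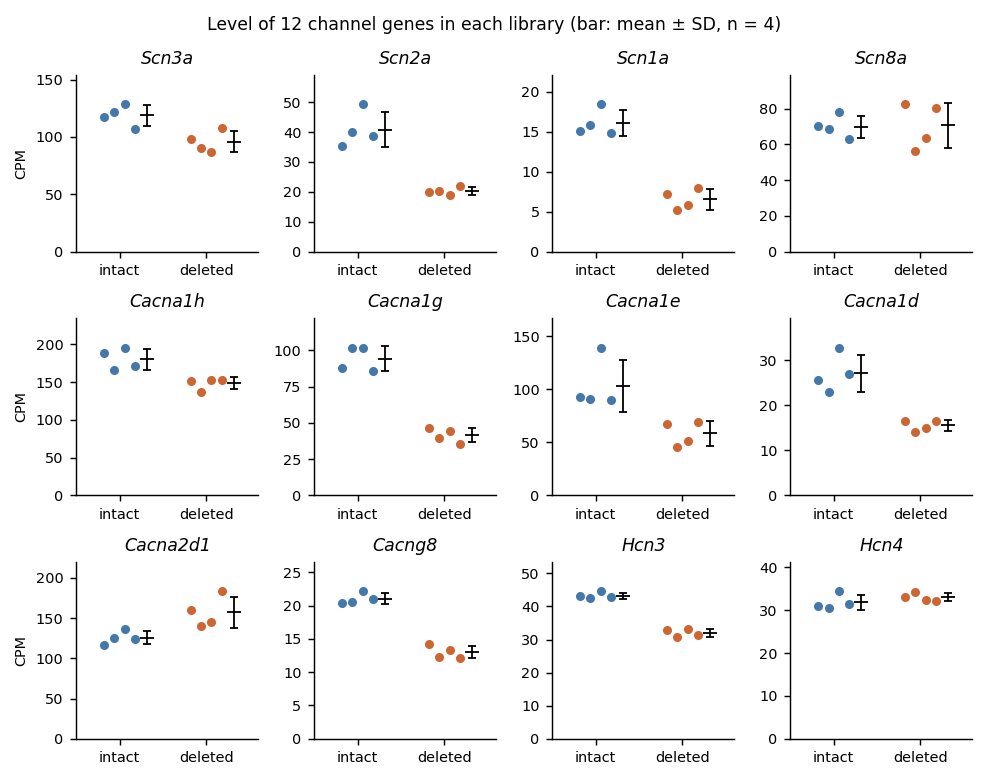
CPM of 12 channel genes in each library (vertical axes from 0), intact in blue and deleted in orange, each point 1 embryo, with the mean ± SD of 4 libraries in black beside the points. The points of Scn2a, Scn1a, Cacna1g, Cacna1e, Cacna1d, Cacng8 and Hcn3 fall without overlap, those of Cacna2d1 rise without overlap, and those of Scn8a and Hcn4 overlap.

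Among the sodium channel beta subunits, adhesion-like proteins with an immunoglobulin domain, Scn3b and Scn2b fell. Scn3b, the most abundant, was at 124, 130, 155 and 132 CPM in intact cortex and at 90.0, 89.5, 91.5 and 102 CPM in deleted cortex. The groups did not overlap, and Scn3b fell by 31.0% (log2 -0.54 ± 0.07, adjusted p = 4.45e-05). Scn2b was at 12.8, 11.4, 14.1 and 12.8 CPM against 8.92, 8.26, 7.84 and 8.43 CPM and fell by 34.5% (adjusted p = 1.95e-05). Per length, the share of Scn3b in the summed level of the beta subunit genes was 86.4% ± 0.573 in intact and 86.8% ± 0.989 in deleted cortex (SD, n = 4 each). Scn4b, at 10 to 23 counts a library, had a log2 fold change of 0.03 ± 0.27 (adjusted p = 0.934).

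The T-type calcium channel pores, which open near the resting potential, all fell, but by different amounts. Cacna1g (gene ID 12291, chromosome 11, 94408391 to 94474400) was at 87.8, 101, 102 and 86.1 CPM in intact cortex and at 46.5, 39.8, 44.4 and 35.6 CPM in deleted cortex. The groups were far apart, and Cacna1g fell by 55.8% (log2 -1.18 ± 0.09, adjusted p = 3.14e-06). Cacna1i was at 19.1, 18.2, 24.5 and 19.1 CPM against 11.2, 10.7, 10.7 and 13.3 CPM, again without overlap, and fell by 43.4% (log2 -0.82 ± 0.10, adjusted p = 3.00e-05). Cacna1h (gene ID 58226, chromosome 17, 25374285 to 25436334) was at 188, 166, 196 and 172 CPM against 152, 137, 152 and 153 CPM. It fell by 17.5% (log2 -0.28 ± 0.06, adjusted p = 0.00101). Per length, Cacna1h held 1.92 ± 0.213 times the level of Cacna1g in intact and 3.61 ± 0.473 times in deleted cortex (SD, n = 4 each), with values of 1.63 to 2.14 and 3.26 to 4.31 that did not overlap.

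Among the pores of presynaptic calcium channels, only the R type passed the test. Cacna1e, the R-type pore, was at 92.5, 90.5, 139 and 89.9 CPM in intact cortex and at 67.0, 45.7, 51.4 and 68.9 CPM in deleted cortex. It fell by 43.5% (log2 -0.82 ± 0.21, adjusted p = 0.0117), and without deleted replicates 2 and 3 it did not pass (log2 -0.60, adjusted p = 0.0755). Cacna1b, the N-type pore, was at 73.7 to 94.1 CPM against 65.3 to 79.8 CPM (log2 -0.15 ± 0.09, adjusted p = 0.186). Cacna1a, the P/Q-type pore, was at 40.8 to 48.5 CPM against 38.6 to 46.8 CPM (log2 -0.03 ± 0.07, adjusted p = 0.754). The values of both genes overlapped between the groups, and the difference of each from Cacna1e was not tested.

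Of the L-type pores, Cacna1d and Cacna1c fell. Cacna1d, which opens at more negative voltages than Cacna1c, was at 25.7, 22.8, 32.8 and 26.9 CPM in intact cortex and at 16.6, 13.9, 14.9 and 16.5 CPM in deleted cortex. It fell by 42.7% without overlap (log2 -0.80 ± 0.10, adjusted p = 5.39e-05). Cacna1c, the main L-type pore of brain and heart, was at 59.1, 56.0, 72.0 and 54.3 CPM against 52.3, 40.6, 42.6 and 53.3 CPM (log2 -0.36 ± 0.12, adjusted p = 0.0302). That call was lost without intact replicate 1 or 3 or deleted replicate 2 or 3 (adjusted p of 0.059 to 0.0799). With deleted replicates 2 and 3 both left out, the log2 fold change of Cacna1c was -0.195 (adjusted p = 0.173, edgeR). The other two L-type pores were at very low levels and were called higher. Cacna1s, the skeletal muscle pore, had 18, 20, 16 and 12 counts in intact and 37, 36, 32 and 42 in deleted libraries (log2 1.11 ± 0.22, adjusted p = 7.76e-04), and the retinal pore Cacna1f had 6, 9, 15 and 7 against 26, 11, 21 and 29 (log2 1.18 ± 0.38, adjusted p = 0.0157). Cacna1f passed the filter on low counts through the deleted libraries alone, so its difference partly follows from the filter and is given as a description only. Of 4 tested skeletal muscle markers, 2 rose beside Cacna1s, where 30.6% of all genes rose. These were Mylpf, a myosin light chain gene, at 1.32 CPM in the intact and 3.14 CPM in the deleted libraries on average, and Myh8, a perinatal myosin heavy chain gene, at 0.119 and 0.998 CPM. Myh8 had 4, 5, 5 and 6 counts in the intact libraries. It passed the filter through the deleted libraries alone, so its difference partly follows from the filter. Acta1 and Myh3 did not pass (adjusted p = 0.0566 and 0.13), and Ckm, Tnnt3, Myog and Myod1 had at most 10 counts in any library. The sum over the 8 markers was 2.54 to 2.89 CPM in the intact and 5.04 to 6.64 CPM in the deleted libraries, and their part in the result was not tested. Exons of Cacna1s, Cacna1d, Cacna1h and Cacna1a overlap those of genes on the opposite strand, and without strand the reads of both cannot be separated.

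Within a family, levels were compared per length (RPKM, reads per kilobase of the deposited gene length, scaled like CPM). The summed RPKM of the 10 sodium channel alpha genes was 28.4 ± 2.29 in intact and 22.9 ± 2.40 in deleted cortex, that of the 10 Cacna1 genes 69.9 ± 7.02 against 51.5 ± 4.11, and that of the 4 Hcn genes 24.1 ± 0.984 against 19.98 ± 0.424 (SD, n = 4 each). In the alpha family Scn3a held 43.8% ± 0.876 of the sum in intact and 43.8% ± 1.30 in deleted cortex, so its share was the same while the sum was lower. The share of Scn2a went from 16.5% ± 1.45 to 10.3% ± 0.724 and that of Scn1a from 6.82% ± 0.233 to 3.43% ± 0.334. Shares of Scn8a went from 21.7% ± 0.435 to 27.2% ± 2.57, and those of Scn9a from 3.47% ± 0.305 to 4.86% ± 0.347. In the Cacna1 family the share of Cacna1g went from 16.5% ± 1.5 to 9.87% ± 1.27, and those of Cacna1b and Cacna1a from 15.8% ± 0.340 to 19.4% ± 0.505 and from 8.04% ± 0.669 to 10.7% ± 0.111. None of these shares except that of Scn3a overlapped between the groups. They are given as descriptions without a test, and a share can rise because other members fell.

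**Figure D3:**
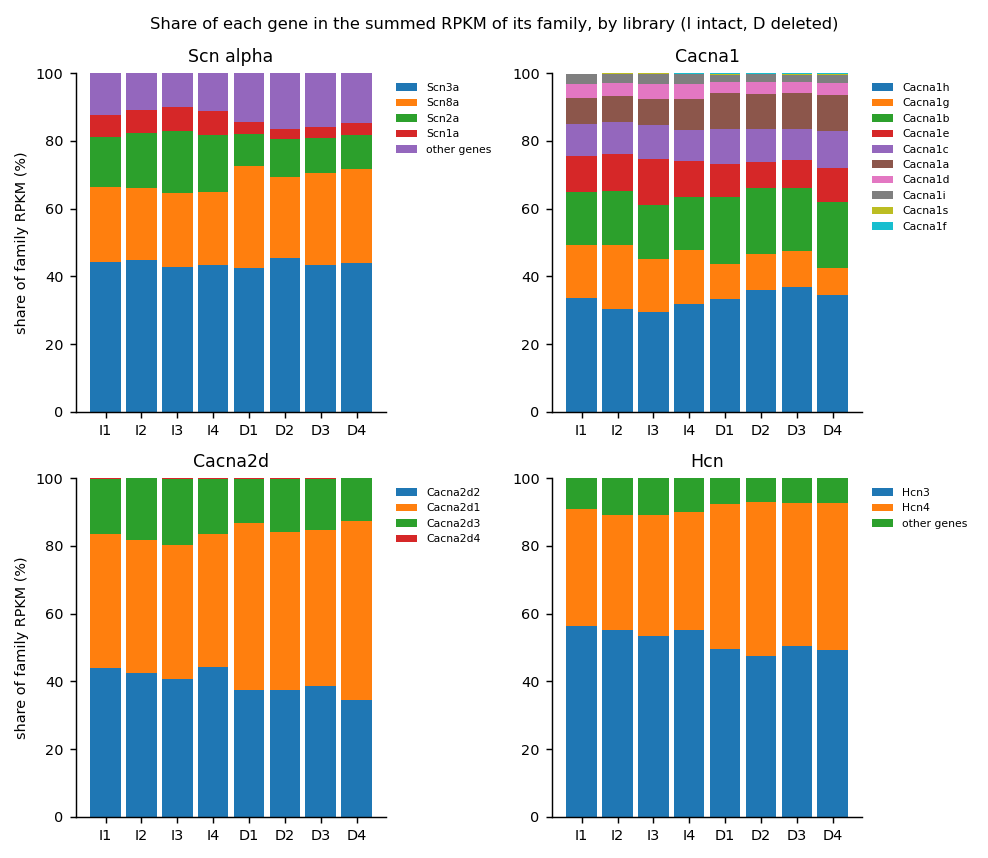
Share of genes in the summed RPKM of their family, with smaller sodium channel alpha and Hcn members drawn together as other genes (percent, vertical axis) in each of the 4 intact (I1 to I4) and 4 deleted (D1 to D4) libraries, for sodium channel alpha, Cacna1, Cacna2d and Hcn genes. The band of Scn3a keeps its height at 42.4% to 45.5% in all 8 libraries, while the bands of Cacna2d1 and Hcn4 are taller in all deleted than in all intact libraries.

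Cacna2d1 was the one abundant channel gene that rose. It encodes the alpha2delta subunit that binds gabapentin and promotes synapse formation. Cacna2d1 (gene ID 12293, chromosome 5, 15934264 to 16374511) was at 116, 126, 136 and 124 CPM in intact cortex and at 160, 140, 145 and 183 CPM in deleted cortex. All deleted libraries exceeded all intact ones, and the log2 fold change was 0.33 ± 0.08 (adjusted p = 0.00658). Its relatives went the other way. Cacna2d2 was at 94.9, 100, 104 and 103 CPM against 89.1, 82.5, 90.2 and 88.8 CPM and fell by 12.7% (adjusted p = 9.50e-04). Cacna2d3 was at 23.6, 28.9, 33.2 and 25.6 CPM against 20.6, 23.3, 23.8 and 21.6 CPM and fell by 19.7% (adjusted p = 0.015), with intact replicate 1 inside the deleted range. Per length, Cacna2d1 was at 0.924 ± 0.0347 times the level of Cacna2d2 in intact and at 1.33 ± 0.146 times in deleted cortex (SD, n = 4 each), and the order of the pair was turned in every deleted library. Cacna2d4, with 2 to 24 counts, was not tested.

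Cytoplasmic beta subunits, which bring calcium channel pores to the membrane, showed small falls. Cacnb3, the most abundant of them, was at 239, 235, 257 and 239 CPM in intact cortex and at 209, 196, 216 and 204 CPM in deleted cortex, and fell by 15.1% (log2 -0.24 ± 0.04, adjusted p = 2.54e-04). Cacnb4 was at 33.9, 37.0, 42.3 and 32.9 CPM against 26.0, 23.5, 23.2 and 26.7 CPM and fell by 31.9% (log2 -0.55 ± 0.08, adjusted p = 8.53e-05). Cacnb2 was at 7.95, 7.54, 8.2 and 8.94 CPM against 6.92, 6.44, 6.46 and 7.08 CPM and fell by 17.5% (adjusted p = 0.00743), a call that was lost without deleted replicates 2 and 3 (adjusted p = 0.0826). None of these 3 genes overlapped between the groups. Cacnb1, at 49.6 to 56.5 CPM against 49.2 to 54.3 CPM, had a log2 fold change of -0.04 ± 0.05 (adjusted p = 0.425). Exons of Cacnb1, Cacnb2 and Cacnb4 overlap those of noncoding genes on the opposite strand, as do those of Scn9a, Cacna2d2 and Cacng2, and an exon of Cacng8 holds a miRNA gene.

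The TARP genes fell in all but 1 case. Cacng8, a TARP of forebrain excitatory neurons, was at 20.3, 20.6, 22.2 and 20.99 CPM in intact cortex and at 14.2, 12.3, 13.4 and 12.2 CPM in deleted cortex. It fell by 38.1% (log2 -0.69 ± 0.06, adjusted p = 1.12e-06), the smallest p among the channel genes. Cacng2, which encodes stargazin, was at 17.0, 16.0, 16.8 and 15.6 CPM against 11.3, 9.80, 10.3 and 10.9 CPM and fell by 35.5% (adjusted p = 2.88e-06). Cacng3, its closest relative and also neuronal, was at 2.70, 2.83, 4.57 and 4.27 CPM against 1.31, 1.29, 1.33 and 1.72 CPM. It fell by 60.6% (log2 -1.34 ± 0.20, adjusted p = 7.18e-05), the lowest log2 fold change of the 39. Cacng5 fell by 48.9% and Cacng4 by 15.0% (adjusted p = 9.34e-05 and 3.31e-04). Cacng7, the most abundant TARP gene per length at 93.1 ± 7.48 RPKM in intact and 93.5 ± 5.79 RPKM in deleted cortex, was at 85.9, 76.8, 71.8 and 74.0 CPM against 81.4, 72.4, 81.6 and 74.2 CPM. Its values overlapped fully, with a log2 fold change of 0.01 ± 0.06 (adjusted p = 0.943). The muscle genes Cacng1 and Cacng6 had 2 to 12 and 0 to 4 counts and were not tested.

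In the HCN family, Hcn3 and Hcn2 fell while Hcn4 did not pass the test. Hcn3 (gene ID 15168, chromosome 3, 89146775 to 89160284), a slow and weakly cyclic AMP sensitive channel, was at 43.0, 42.6, 44.6 and 42.8 CPM in intact cortex and at 33.0, 30.8, 33.2 and 31.2 CPM in deleted cortex. It fell by 25.9% with little spread within either group (log2 -0.43 ± 0.04, adjusted p = 1.55e-06), although its exons overlap those of Pklr on the opposite strand. Hcn2, a main HCN channel of mature brain, was at 5.90, 7.05, 7.64 and 6.38 CPM against 4.12, 3.27, 4.04 and 3.39 CPM and fell by 45% (log2 -0.86 ± 0.11, adjusted p = 3.19e-05). Hcn4, the pacemaker channel of the sinus node, was at 30.6 to 34.5 CPM against 32.2 to 34.3 CPM (log2 0.05 ± 0.05, adjusted p = 0.348). Per length, Hcn4 was at 0.633 ± 0.0220 times the level of Hcn3 in intact and 0.887 ± 0.05 times in deleted cortex (SD, n = 4 each), without overlap, and Hcn3 remained the higher of the pair in all libraries.

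Neighbouring channel genes did not share 1 response. On chromosome 2 (65457118 to 66784910 in GRCm38), Scn3a, Scn2a, Scn1a, Scn9a and Scn7a lie in this order within 1328 kb. Scn3a, Scn2a and Scn1a fell, with log2 values of -0.31, -1.01 and -1.30, Scn9a was at 0.16 without passing the test, and Scn7a was nearly absent. On chromosome 9, Scn10a (119608456 to 119719322) and Scn11a (119753763 to 119825456) are neighbours, and Scn10a fell while Scn11a rose. On chromosome 7 (3332027 to 3435667), Cacng7 and Cacng8 are neighbours in a stretch of 104 kb, with log2 values of 0.01 ± 0.06 and -0.69 ± 0.06. On chromosome 11 (107703218 to 107915055), Cacng4 and Cacng5 both fell, with log2 values of -0.23 ± 0.04 and -0.97 ± 0.15.

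Genes of proteins that bind or place these channels went in both directions. Of 31 tested partner genes, 16 were lower (51.6%, against 32.9% of all genes) and 4 higher (12.9%, against 30.6%), and calls in either direction made up 64.5%, near the 63.5% of all genes. The lists were chosen from general knowledge of these channels. Among the sodium channel partners, 6 of 10 fell and none rose. Nedd4l, a ubiquitin ligase that removes channels from the membrane, was at 291 CPM in intact cortex and 176 CPM in Taf8-deleted cortex on average (log2 -0.73 ± 0.04, adjusted p = 1.34e-08). Fgf11, of the intracellular FGF family that binds sodium channel tails, fell by 0.98 ± 0.10 and Sptbn4, a spectrin of the axon initial segment, fell by 0.47 ± 0.07 on the log2 scale. Ank3, the ankyrin that anchors sodium channels there, had a log2 fold change of -0.29 ± 0.13 (adjusted p = 0.0855), and Fgf13, the FGF gene with the highest CPM on the list, -0.00 ± 0.04 (adjusted p = 0.929). Fgf12 and Fgf14 fell by 0.34 ± 0.09 and 0.28 ± 0.06 on the log2 scale (adjusted p = 0.00431 and 0.00194).

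Of 12 tested calcium channel partners, 5 fell and 3 rose, which at 41.7% and 25% is near the 32.9% and 30.6% of all genes, and their median log2 fold change was -0.05. Rims2 and Rimbp2, scaffolds that tether calcium channels at release sites, had log2 values of -0.77 ± 0.09 and -0.71 ± 0.09 (adjusted p = 3.53e-05 and 1.84e-05), and Ncs1, a neuronal calcium sensor, -0.38 ± 0.03 (adjusted p = 1.23e-06). Rims1 had -0.07 ± 0.06 (adjusted p = 0.364). The genes that rose were Cachd1, an alpha2delta-like protein, at 0.24 ± 0.06 (adjusted p = 0.00707), and Gem and Rem2, small GTPases that inhibit calcium channels, at 0.32 ± 0.09 and 0.13 ± 0.05 (adjusted p = 0.0112 and 0.0445). The call of Cachd1 was lost without deleted replicates 2 and 3 (adjusted p = 0.101), and that of Rem2 with DESeq2 (adjusted p = 0.0522), without a filter (0.0886), with the replicate number as a block (0.0867), without deleted replicates 2 and 3 (0.103) and on leaving out any of 6 single libraries (intact replicate 1, 2 or 3 or deleted replicate 1, 3 or 4; adjusted p of 0.0581 to 0.114). Among 5 tested HCN partners, with a median log2 fold change of 0.04, Kctd3 rose by 0.29 ± 0.03, Nedd4l (also counted above) and the actin crosslinker Flna fell, and the auxiliary subunit Pex5l was at 0.04 ± 0.10 (adjusted p = 0.774). The remaining HCN partner, Kcne2, was at 1.65 ± 1.73 (adjusted p = 0.439). It varied widely within both groups, with 6, 3, 19 and 355 counts in intact and 1073, 56, 152 and 4 in deleted libraries. Of the 5 genes of the NALCN sodium leak channel, 4 fell and none rose: the pore gene Nalcn by 0.23 ± 0.05, Unc79 by 0.31 ± 0.08, and the auxiliary genes listed as Fam155a and Tmem28 by 0.64 ± 0.06 and 0.67 ± 0.10 on the log2 scale. Unc80 was at 0.10 ± 0.13 (adjusted p = 0.501).

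Levels of markers of other cells differed with the genotype too, and their part in the channel results was not tested. Of all genes, 30.6% rose and 32.9% fell, 63.5% in either direction. Either call was reached by 42.9% of the microglia, 50% of the blood and 57.1% of the pericyte and smooth muscle markers, below that share. Meningeal markers were near it at 66.7%, and radial glia, endothelial, oligodendrocyte precursor and astrocyte markers lay above it at 80% to 90%. Of 10 radial glia markers, 7 rose and 2 fell, with a median of 0.55. Endothelial markers had 7 of 8 higher, with sums of 150 to 157 CPM against 174 to 215 CPM, and pericyte and smooth muscle markers 4 of 7 higher, with sums of 76.7 to 77.7 CPM against 92.3 to 110 CPM. Blood markers had 3 of 6 higher (130 to 173 CPM against 168 to 223 CPM), and meningeal markers 4 of 6 tested genes higher. Microglia markers had 2 higher and 1 lower of 7 (36.5 to 40.8 CPM against 36.2 to 44.4 CPM), astrocyte markers 3 of 5 tested genes lower and 1 higher (227 to 251 CPM against 176 to 191 CPM), and oligodendrocyte precursor markers 4 of 6 lower and 1 higher (71.2 to 75.4 CPM against 58.3 to 74.1 CPM). The astrocyte marker called higher, Gfap, had 7 to 15 counts in the intact and 17 to 23 in the deleted libraries. It passed the filter on low counts through the deleted libraries, so its difference partly follows from the filter. No marker was at 0 in all libraries. Without deleted replicates 2 and 3, which held the most meningeal marker RNA, 21 channel genes were lower and 4 higher. Without intact replicate 3, which held the most neuron marker RNA, 24 were lower and 3 higher. In both settings fewer of all genes were called lower, and fewer higher, than with every library kept. The part of marker RNA in the smaller channel counts was not tested.

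**Figure D4:**
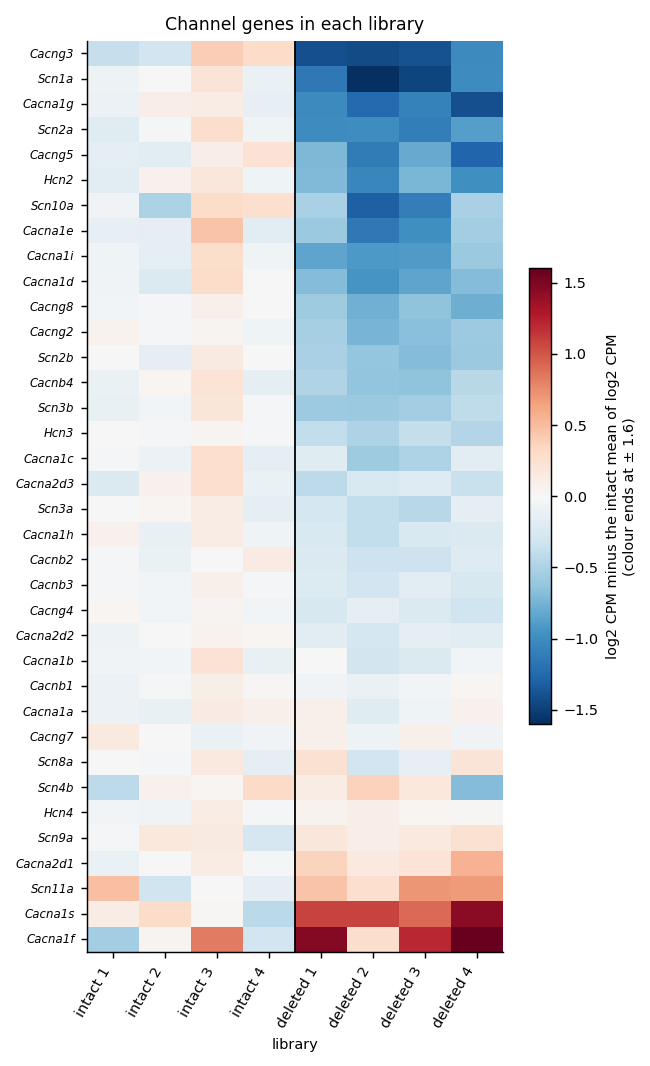
Log2 CPM of 36 of the tested channel genes (rows, ordered by fold change) in each library (columns), minus the mean over the 4 intact libraries; blue is lower and red higher, and colours end at the limits of the scale. Most rows are blue in all 4 deleted libraries, rows at the bottom are red, and the column of intact replicate 3 is the reddest of the intact columns, with the highest intact value in 28 rows.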

How the data were processed

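Gene counts of 8 cortex libraries were analysed, 4 Taf8-intact and 4 Taf8-deleted. Per the file headers, each deposited table lists raw read counts for every gene beside its length. The submitters' processing notes name bcl2fastq 1.8.4, Subread 1.5.0, featureCounts and build mm10, without roles. The sources used here do not name the annotation. The 8 separate files were identical to the columns of the matrix. RefSeq (GRCm38.p6) gave symbols for 25275 of 27179 identifiers; exon overlaps came from GENCODE M21. No library pair within a group agreed within sampling noise (chi-square per gene 4.22 to 14.6).

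The filterByExpr rule on low counts kept 16074 genes. Groups were compared with edgeR 4.0.16 (R 4.3.3): TMM factors, the robust quasi-likelihood test, no covariates, all 8 libraries, Benjamini-Hochberg adjustment over all genes, threshold 0.05. The procedure was tested on simulated data with known changes. Far fewer genes changed there than here, evenly in both directions and with the same scatter for all genes. The simulation therefore does not check the scaling in data like these. CPM uses TMM-scaled library sizes, RPKM divides by the deposited length. A count of 0 allows up to 3 counts, 0.067 to 0.0758 CPM, for counting error only. Alternatives were other size factors and filters, DESeq2 1.42.0, limma 3.58.1 voom, a replicate block and libraries left out; leaving out deleted replicates 2 and 3 was added after seeing the data. The channel genes and all lists were chosen with earlier results of these data known. In each family, values of every library are given for the gene with the highest mean CPM and up to 3 genes with the smallest p in each direction; of each partner list, up to 3 genes in each direction are named. Values outside this rule (Scn8a, Cacna1c, Cacna1e, Unc79, Fgf12, Fgf14, uncalled partners) were added after they were seen. Separate embryos are stated in the labels; littermates are not identified. Single values of some of the channel genes are not reported here; the counts, sums and medians cover all of them.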

Additional observations from a re-analysis of the deposited data

Results flagged for a closer look

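Groups of 4 libraries were looked at for 1 library apart, 108 in all, which did not cover all partner genes. In 8 of these, 1 library lay far from the others (gap over range above Dixon's critical value), where chance gives about 1 in 20 groups. Intact replicate 3 was high for Cacna1e at 139 CPM (others 89.9 to 92.6), Cacna1i at 24.5 CPM (18.2 to 19.1), Rims2 at 73.9 CPM (55.8 to 57.1) and Sptbn4 at 42.8 CPM (35.3 to 36.1). Deleted replicate 4 was high for Scn3b at 102 CPM (89.5 to 91.5) and Cacng3 at 1.72 CPM (1.29 to 1.33), and low for Cachd1 at 122 CPM (151 to 152). Deleted replicate 2 was low for Cacna1h at 137 CPM (152 to 153). Some partner genes outside these groups also had a library far from the others. Intact replicate 3 was high for Nfasc at 419 CPM (364 to 370) and Unc80 at 9.61 CPM (7.45 to 7.71). Pex5l was low in intact replicate 2 at 3.77 CPM (4.27 to 4.30). Kcne2 was high in intact replicate 4 at 8.42 CPM (0.0707 to 0.462) and in deleted replicate 1 at 23.5 CPM (0.0997 to 3.43).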

How the results depend on the processing

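Of the 29 called channel genes, 24 kept their call in every alternative that gave a value; the exceptions were Scn11a, Cacna1c, Scn10a, Cacna1e and Cacnb2. Counts of channel genes ranged from 21 to 25 lower and 2 to 6 higher over all alternatives; the value of 2 higher came when 4 libraries had to exceed a CPM of 1, a filter under which Cacna1f and Cacna1s were not tested. Leaving out single libraries gave 24 to 25 lower and 3 to 5 higher. With library totals only, 25 were lower and 6 higher. Cacna1c was also lost with upper-quartile factors (adjusted p = 0.0544), without a filter (0.0602) and with the replicate block (0.0566), and Scn9a was called higher with library totals only (log2 0.225).

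Signs of genes that did not pass the test turned as follows, all without passing. With library totals only and upper-quartile factors, Cacna1a was at 0.033 and 0.030 and Cacnb1 at 0.019 and 0.015. With voom quality weights, Scn8a was at -0.004 and Cacng7 at -0.005. On leaving out single libraries, Scn8a ranged from -0.053 to 0.12, Scn4b from -0.096 to 0.208, Cacna1a from -0.062 to 0.035 and Cacng7 from -0.021 to 0.059. Without deleted replicates 2 and 3, Scn4b was at -0.238 and Cacna1a at 0.068. The cause was not tested.

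The replicate numbers do not pair the embryos: deviations of same-numbered libraries correlated at -0.455 to 0.005, and none correlated best with its own number. With the replicate block, 24 channel genes were lower and 4 higher. At 0 to 24 counts a library, Scn4a, Scn7a, Cacna2d4, Cacng1 and Cacng6 were too low to test.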
